A study of Arabidopsis thaliana with 12 samples.

Results

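The transcripts described here are 26 Arabidopsis thaliana genes that gave a higher signal in the psah2 mutant than in the wild type (WT) in the array values as they were deposited. The psah2 plants are a mutant in which, per the labels, the PSI-H2 subunit of photosystem I is missing, and psah2 and WT share the ecotype Columbia 0. The study hybridised total RNA of 6 psah2 and 6 WT samples to 12 single-colour arrays with 3439 probes, and gives 1 intensity per probe and array on a linear scale that ends at 100. Tissue, age and growth of the plants are not stated in the labels, nor whether each sample is a plant of its own. A p-value here therefore covers the spread of these samples only, some of which may be technical, and the number of arrays limits the precision.

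The genes were chosen by their deposited intensities. A member is a probe annotated with exactly 1 gene for which at least 5 of the 6 psah2 intensities exceed the highest WT intensity, with no normalization. Of 692 single-gene probes 34 met this rule, and 26 remained after 9 genes described separately had been set aside, 8 of which met it. The rule uses the comparison of psah2 with WT itself, so the levels of the members in the groups are a description and carry no test. All 26 matched a locus of the RefSeq annotation of assembly TAIR10.1. Of the 26, 21 had all 6 psah2 arrays above all 6 WT arrays, and 5 had exactly 5. Groups did not overlap in this direction for 4.19% of all single-gene probes. In extracts of whole samples such as these, more cells of a type and more RNA per cell cannot be told apart.

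PSI-H is a small membrane subunit of photosystem I, the complex that uses light to pass electrons from plastocyanin to ferredoxin. It lies where mobile light-harvesting complexes of photosystem II dock on photosystem I, and plants without it are impaired in state transitions, the short-term rebalancing of light between the photosystems. Most photosystem I subunits are encoded in the nucleus, and so are the plastid enzymes and regulators that work beside them. Of the 26 genes only 5 carry a name beyond a locus or clone number in the annotation used here. They are RAP74, ATSPS4F, THIC, PRA1.B3 and AT5G55580, which is also called mTERF9. The other 21 are given by locus and without a role. No gene of 4 lists of photosystem, electron transport and Calvin-Benson cycle genes is among the members. Of the 63 listed loci 6 had a single-gene probe, and the 4 of these that met the rule are among the genes set aside.

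Signals above WT were uncommon on these arrays in the values as deposited, to which the shares below refer. The rule gave 26 members on that scale and 86 after quantile normalization. The rule was met by 4.91% of the single-gene probes, by 4.83% of the 870 probes annotated with several genes and by 8.1% of the 1877 probes with no gene listed, or 6.63% of all probes. The mirrored rule, at least 5 of 6 psah2 arrays below the lowest WT array, was met by 482 of the 692 single-gene probes, or 69.7%. The groups also differed in overall brightness, with a median intensity per array from 0.0904 to 0.0995 in psah2 and from 0.304 to 0.379 in WT. The intensities summed over all probes were closer, from 2602 to 2905 on psah2 arrays and from 2972 to 3552 on WT arrays. The labels do not say whether psah2 and WT were hybridised as separate sets of arrays. An effect of such sets could not be told apart from genotype, and this was not tested. None of 19 marker loci of seeds, roots and green tissue had a single-gene probe, so the tissue was not checked.

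The members were among the brighter probes of the psah2 arrays. The rule asks for psah2 intensities above those of WT, so these values are a description and largely follow from it. Together the members held 4.82% ± 0.46 of the summed intensity of a psah2 array and 1.59% ± 0.09 of that of a WT array (SD, n = 6 each). These shares rest mainly on the brightest members. The members summed to 119 to 153 on psah2 arrays, where AT5G38360, AT3G26630 and AT5G50350 had means of 49.1, 26.4 and 15.7. All 26 lay above the median psah2 mean of single-gene probes, which was 0.0901. In WT, 21 lay above the corresponding median of 0.344. Divided by WT mean into 4 sets of 173, the single-gene probes gave 3, 2, 7 and 14 members from the dimmest to the brightest set. A mean intensity above 1 was reached in psah2 by 17 members among 54 single-gene probes, and in WT by 10 members among 95 single-gene probes. No member reached the top of the scale on any array.

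**Figure D1:**
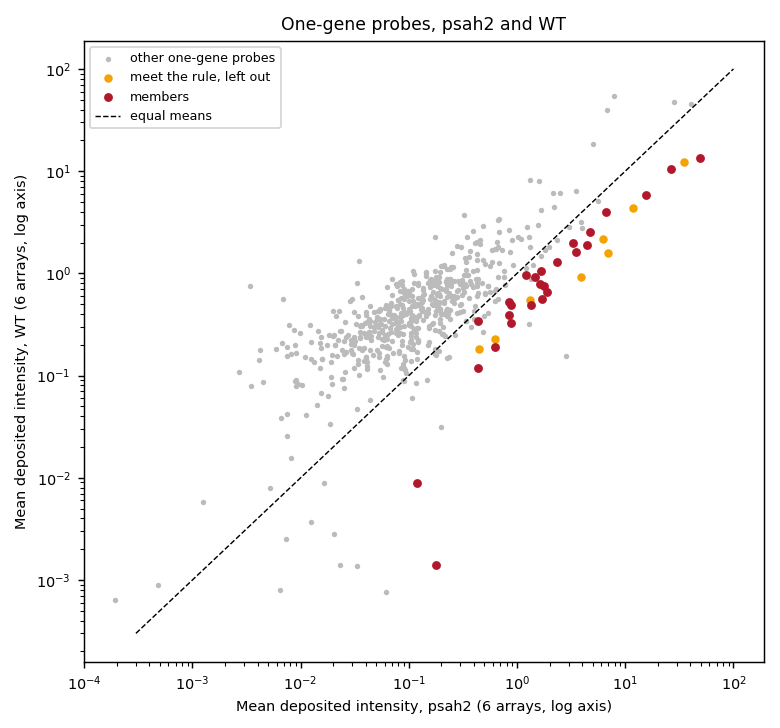
Mean deposited intensity of single-gene probes, with psah2 on the horizontal and WT on the vertical axis, both logarithmic. Members (red) and the 8 other probes that met the rule (orange) lie to the right of the dashed line of equal means, while most of the 592 probes drawn lie to its left; 100 probes with a mean of 0 in either group are not drawn.

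Across the 24 members with no array at 0, the ratio of mean psah2 to mean WT intensity ran from 1.26 to 3.68, with a median of 2.17. The 5 genes with a known name are described first, and the others in order of brightness.

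Among the named genes, RAP74 (AT4G12610) encodes the large subunit of the general transcription factor TFIIF, which acts with RNA polymerase II at promoters. Its intensity was 4.17 at the lowest, 4.61 at the median and 5.13 at the highest psah2 array, against 2.04, 2.44 and 3.27 on the WT arrays. The groups did not overlap, and the mean was 1.85 times higher in psah2. The spread was wider in WT, where replicates 3 and 4 read 3.27 and 2.98 and replicates 5 and 6 read 2.04 and 2.07.

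ATSPS4F (AT4G10120) belongs to the sucrose-phosphate synthases, which make the precursor of sucrose in the cytosol from the sugar phosphates that photosynthesis supplies. It ranged from 1.96 through a median of 2.33 to 2.66 in psah2, against 1.09, 1.32 and 1.51 in WT. Every psah2 array was above every WT array, and the ratio of the means was 1.78. Within both groups replicates 1 and 2 were the highest and replicates 5 and 6 the lowest.

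THIC (AT2G29630) is the plastid enzyme that makes the pyrimidine part of thiamine, the precursor of the cofactor of transketolase and pyruvate dehydrogenase. It ranged from 0.75 through 0.836 to 0.95 in psah2, against 0.491, 0.528 and 0.566 in WT. The groups did not overlap, and the ratio of 1.58 came with a small spread, 0.834 ± 0.069 in psah2 and 0.529 ± 0.031 in WT (SD, n = 6 each).

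PRA1.B3 (AT5G05380) is a prenylated Rab acceptor, one of the membrane proteins of the secretory pathway that bind Rab GTPases. It stood only just inside the rule. The lowest psah2 array was at 1.358 and the highest WT array at 1.342, although the medians were 1.66 in psah2 and 0.992 in WT.

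AT5G55580 (mTERF9) belongs to the mTERF family, nucleus-encoded regulators of gene expression in plastids and mitochondria. Its WT values had the smallest relative spread of all members, 0.970 ± 0.025, while those of psah2 were 1.22 ± 0.25 (SD, n = 6 each). Replicate 2 of psah2, at 0.994, lay below the highest WT array, at 0.9997, so the groups overlapped. The ratio of 1.26 was the lowest among the 24 members with no array at 0.

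**Figure D2:**
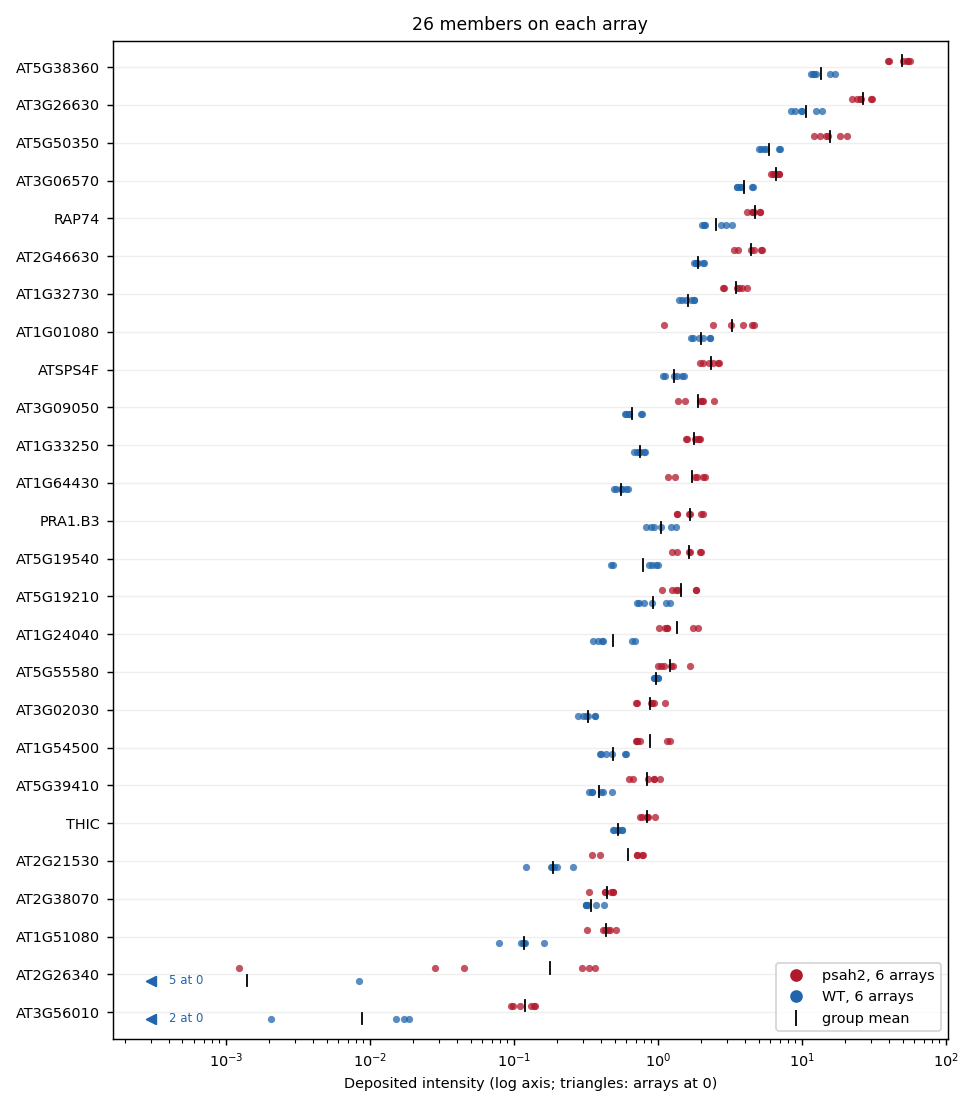
Deposited intensity (logarithmic axis) of the 26 members on each of the 6 psah2 arrays (red, upper row of a gene) and 6 WT arrays (blue, lower row), with a tick at each group mean. Genes run from the highest psah2 mean, AT5G38360 at 49.1, down to AT3G56010 at 0.119, and triangles mark the WT arrays at 0 of AT2G26340 and AT3G56010.

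The brightest members are named by locus only. AT5G38360 gave 39.7 at the lowest, 52.0 at the median and 56.1 at the highest psah2 array, against 11.5, 12.4 and 16.9 in WT. Its lowest psah2 array was 2.35 times the highest WT array, and its ratio of means, 3.65, was the second highest of the 24. AT3G26630 ranged from 22.3 through 25.6 to 30.6 in psah2, against 8.45, 9.92 and 13.8 in WT. AT5G50350 ranged from 12.1 through 14.9 to 20.5 in psah2, against 5.04, 5.55 and 7.02 in WT. For both genes the groups were well apart, with ratios of 2.48 and 2.66, and in both groups replicates 1 and 2 were the highest.

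AT3G06570 showed the smallest relative spread of all members in psah2, with an SD of 5.43% of the mean. It ranged from 6.11 through 6.62 to 6.98 in psah2, against 3.52, 3.76 and 4.58 in WT, at a ratio of 1.67. AT2G46630 ranged from 3.38 through 4.53 to 5.31 in psah2, against 1.77, 1.87 and 2.08 in WT. AT1G32730 ranged from 2.84 through 3.61 to 4.12 in psah2, against 1.40, 1.63 and 1.77 in WT. All 3 kept their groups apart, and the last 2 had ratios of 2.31 and 2.16.

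AT1G01080 was the least even of the bright members. Its 6 psah2 arrays, from replicate 1 to 6, gave 3.88, 3.20, 2.40, 1.10, 4.52 and 4.65, and its 6 WT arrays 2.29, 2.29, 1.75, 1.70, 1.92 and 2.05. Replicate 4 of psah2 was below all WT arrays, and replicate 3 only just above the highest of them. The group means were 3.29 ± 1.36 in psah2 and 2.001 ± 0.258 in WT (SD, n = 6 each).

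Members of middle intensity had some of the wider ratios. AT1G64430 ranged from 1.17 through 1.83 to 2.11 in psah2, against 0.494, 0.558 and 0.6246 in WT, a ratio of 3.09. AT3G09050 ranged from 1.38 through 1.99 to 2.45 in psah2, against 0.59, 0.629 and 0.772 in WT, a ratio of 2.86. AT1G24040 ranged from 1.01 through 1.16 to 1.89 in psah2, against 0.354, 0.414 and 0.692 in WT, a ratio of 2.77. In none of these genes did the groups overlap. AT1G24040 was set apart within each group by replicates 1 and 2, at 1.89 and 1.75 in psah2 and at 0.662 and 0.692 in WT, while the other arrays reached at most 1.16 in psah2 and 0.417 in WT.

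AT1G33250 ranged from 1.56 through 1.85 to 1.97 in psah2, against 0.686, 0.747 and 0.811 in WT. AT3G02030 ranged from 0.701 through 0.903 to 1.13 in psah2, against 0.278, 0.320 and 0.366 in WT. Their groups did not overlap, at ratios of 2.38 and 2.71, and the lowest psah2 array was 1.92 and 1.91 times the highest WT array.

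The remaining members of this range had lower ratios. AT5G19540 averaged 1.65 ± 0.30 in psah2 and 0.785 ± 0.240 in WT (SD, n = 6 each), and in WT replicates 5 and 6 read only 0.490 and 0.471. AT5G39410 averaged 0.846 ± 0.163 in psah2 and 0.388 ± 0.055 in WT, and AT1G54500 averaged 0.876 ± 0.244 in psah2 and 0.485 ± 0.091 in WT (SD, n = 6 each). These 3 genes had groups that did not overlap. AT5G19210, at 1.46 ± 0.32 in psah2 and 0.920 ± 0.212 in WT, and AT2G38070, at 0.440 ± 0.061 in psah2 and 0.345 ± 0.043 in WT (SD, n = 6 each), had 1 psah2 array each below the highest WT array.

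At the dim end, AT1G51080 and AT2G21530 combined low intensities with high ratios. AT1G51080 ranged from 0.322 through 0.441 to 0.515 in psah2, against 0.0793, 0.116 and 0.162 in WT, which was the highest ratio of the 24, at 3.68. AT2G21530 ranged from 0.348 through 0.713 to 0.792 in psah2, against 0.121, 0.186 and 0.257 in WT, a ratio of 3.31. The groups of both were apart, and for AT2G21530 replicates 3 and 4 of psah2, at 0.395 and 0.348, were well below the other 4, which were at 0.712 or more.

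For 2 members the WT signal was at or near 0, so a ratio has no firm base. AT3G56010 ranged from 0.0961 through 0.120 to 0.139 in psah2, while 2 WT arrays were listed at 0 and the highest was at 0.0187. AT2G26340 was listed at 0 on 5 WT arrays and at 0.00835 on WT replicate 1. Its psah2 arrays, from replicate 1 to 6, gave 0.331, 0.365, 0.00124, 0.296, 0.0283 and 0.0454, so that 3 arrays were clearly bright and 3 were dim. The size of both differences is uncertain, since intensities this close to 0 are near the bottom of the scale.

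Close to the threshold, the ratio of the second lowest psah2 array to the highest WT array was 1.01 for PRA1.B3, 1.02 for AT2G38070 and 1.03 for AT5G19210, which are the 3 members that most narrowly met the rule. Just outside it, the same ratio was 0.978 for AT5G44000, 0.952 for AT3G15900 and 0.943 for HEMA3 (AT2G31250), a gene of the glutamyl-tRNA reductases. Those 3 had means of 0.374, 1.41 and 1.22 in psah2, against 0.298, 1.20 and 1.12 in WT. Of their 6 psah2 arrays, 4, 1 and 3 exceeded the highest WT array, where the rule asks for 5. By the ratio alone, members and near misses form a continuous range at this edge.

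The size of each difference depended on the scale. On the log2 scale as deposited, the 25 members with enough values above 0 had a median change of 1.11 (psah2 minus WT), beside a median of -1.64 over all 2643 tested probes. After quantile normalization the median was 1.58 for the members and -0.26 for all tested probes, and with arrays centred on their medians 2.54 and -0.21. AT2G26340 was left out of these fits because fewer than 4 of its WT values were above 0, and AT3G56010 was fitted on 4 WT arrays. All 25 members had a positive log2 change on each of these scales. As deposited this largely follows from the rule. The rule does not fix the sign after normalization, but it used the same comparison on the same arrays, so the sign carries no test.

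**Figure D3:**
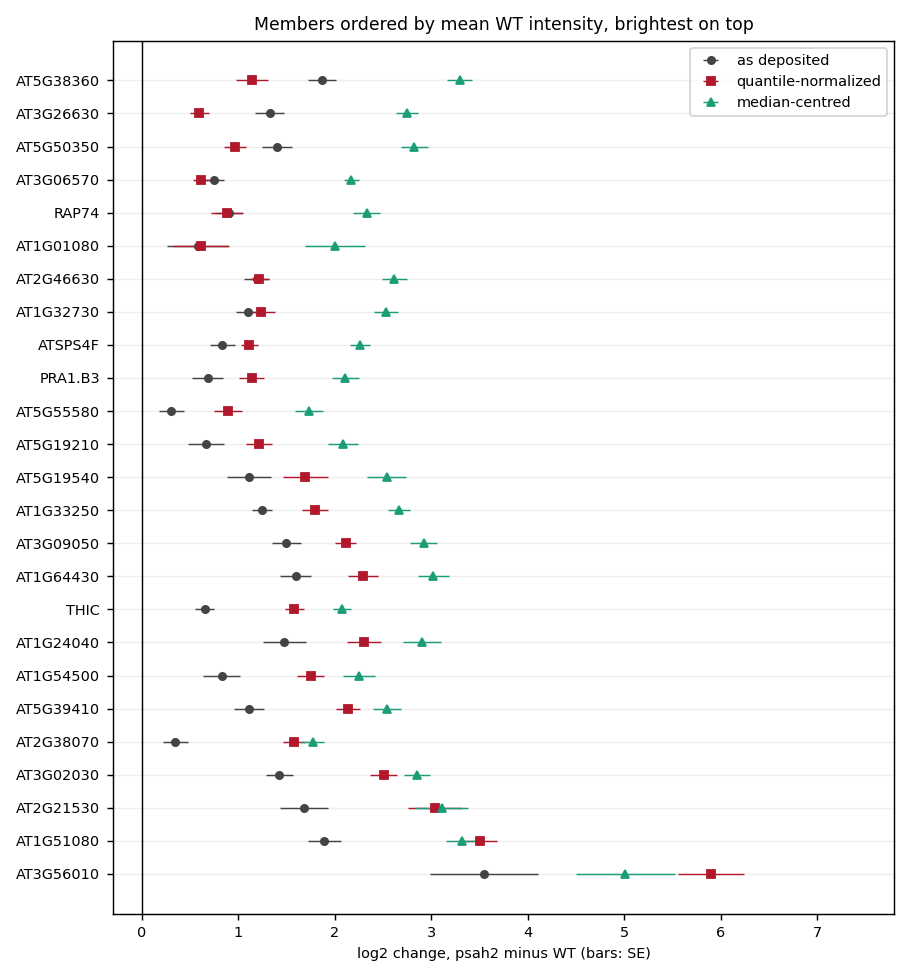
The log2 change (psah2 minus WT, horizontal axis, bars SE) of 25 members as deposited (grey), quantile-normalized (red) and median-centred (green), ordered by mean WT intensity. The quantile-normalized change lies above the deposited one for 20 members and below it for the 5 members with the brightest WT means.

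Quantile normalization changed the order of the members as well as their size. It raised the log2 change of 20 members, with WT means up to 2.001, and lowered it for the 5 members with WT means of 2.54 or more, AT5G38360, AT3G26630, AT5G50350, AT3G06570 and RAP74. For AT5G38360 the log2 change was 1.14 after quantile normalization and 1.87 as deposited, and for AT3G26630 it was 0.60 and 1.33. At the dim end it was 3.502 and 1.89 for AT1G51080, 3.04 and 1.69 for AT2G21530, and 1.58 and 0.35 for AT2G38070. The largest deposited ratios thus belong to genes at both ends of the brightness range, whereas the largest normalized changes belong to dim probes.

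In the fit over all probes (limma on quantile-normalized log2 values, Benjamini-Hochberg), 24 of the 25 members passed the threshold of 0.05 as higher in psah2, where 25.2% of the 2643 tested probes did. As deposited the count was also 24, where 9.5% of all tested probes did, and the split of all calls was then 251 higher to 2049 lower instead of 667 to 958. These counts follow from how the members were chosen and are given without weight. The exception on both scales was AT1G01080, whose quantile-normalized log2 change was 0.62 with an SE of 0.29.

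A measure that the rule did not use comes from a second set of probes. For 6 of the 26 genes another probe was annotated with the gene together with 1 or 2 others. On all 6 probes the mean deposited intensity was lower in psah2 than in WT, and on 5 of them all 6 psah2 arrays lay below all 6 WT arrays. Among all several-gene probes, 69.3% met the mirrored rule, so a lower signal on such a probe was the usual case. In the fit over all tested probes 3 of the 6 were lower in psah2 and 1 was higher, where 36.5% of the 671 tested several-gene probes were lower and 21.6% higher.

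The probe shared by PRA1.B3 with PRA1.B1 and PRA1.B2, further members of the Rab acceptor family, gave 0.111 at the lowest, 0.150 at the median and 0.266 at the highest psah2 array, against 0.642, 0.704 and 0.842 in WT. Its groups did not overlap, and it fell by 0.92 on the quantile-normalized log2 scale (SE 0.18, n = 6 each, limma, adjusted p = 0.000829). With consecutive replicates averaged the log2 change was -0.81 and only just passed the test (limma, adjusted p = 0.0462). The single-gene probe of PRA1.B3 was higher in psah2 on the same arrays.

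The probe shared by AT1G01080 and AT1G60000 gave 0.154, 0.210 and 0.253 in psah2, against 0.715, 0.767 and 0.854 in WT. Again no arrays overlapped, and it fell by 0.84 on the same scale (SE 0.13, n = 6 each, limma, adjusted p = 0.000154). With consecutive replicates averaged the log2 change was -0.73 and passed the test less clearly (limma, adjusted p = 0.0315). Replicates 5 and 6 of psah2 were the highest of their group on this probe and on the single-gene probe, while the lowest were replicates 1 and 2 here and replicates 3 and 4 on the single-gene probe.

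The probe shared by AT5G55580 and AT1G78930 gave 0, 0.0215 and 0.0571 in psah2, against 0.392, 0.427 and 0.480 in WT. The groups were far apart, and on the 5 psah2 arrays above 0 it fell by 3.07 on the quantile-normalized log2 scale (SE 0.92, limma, adjusted p = 0.0134). Without psah2 replicate 2, at 0.000346, the log2 change was -1.95 (adjusted p = 0.000149). With consecutive replicates averaged the log2 change was -4.50 and no longer passed the test (limma, adjusted p = 0.159), and with a floor in place of the value at 0 it was -4.11 (limma, adjusted p = 0.0838), so the change was larger in both while the call was lost.

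The probe shared by AT3G26630 and AT2G42920 was dim in both groups, from 0.0134 through 0.0281 to 0.145 in psah2, against 0, 0.0542 and 0.0865 in WT, and the groups overlapped. It passed the test as higher after quantile normalization, with a log2 change of 1.70 on the 5 WT arrays above 0 (SE 0.60, limma, adjusted p = 0.0282), but had a log2 change of -0.74 as deposited (adjusted p = 0.273). It did not pass with cyclic loess, at 1.14 (adjusted p = 0.168), or with median-centred arrays, at 0.72 (adjusted p = 0.338). Without WT replicate 1 the log2 change was 1.62 (adjusted p = 0.0613) and without WT replicate 3 it was 1.30 (adjusted p = 0.0693), neither passing the test. The probes shared by AT5G19210 with AT3G58510 and AT2G42520, and by AT2G38070 with AT5G01170 and OPS, did not pass the test on that scale, with log2 changes of -0.07 (SE 0.46, on the 4 psah2 arrays above 0) and -0.03 (SE 0.16). As deposited both were lower, with log2 changes of -2.51 and -1.06 (limma, adjusted p = 0.000927 and 0.000145). That was the usual call on the deposited scale, where 81.1% of the 671 tested several-gene probes were lower. The median change over all tested probes was then -1.64, a larger fall than that of the probe shared by AT2G38070.

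For PRA1.B3, AT1G01080 and AT5G55580 the single-gene probe thus had the higher mean in psah2 and the shared probe the lower one, on the deposited and on the normalized scale. The direction of the single-gene probe follows from the rule as deposited, and for AT1G01080 it did not pass the test after normalization. The difference between the probes of a gene was not tested. The annotation does not say how much each transcript contributes to a shared probe, and it was not checked against probe sequences. Among other single-gene probes, 61 shared probes were found. As deposited, 44 of the 61 had a lower mean in psah2 and 37 met the mirrored rule. After quantile normalization 48 were tested, with 12 lower and 16 higher.

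**Figure D4:**
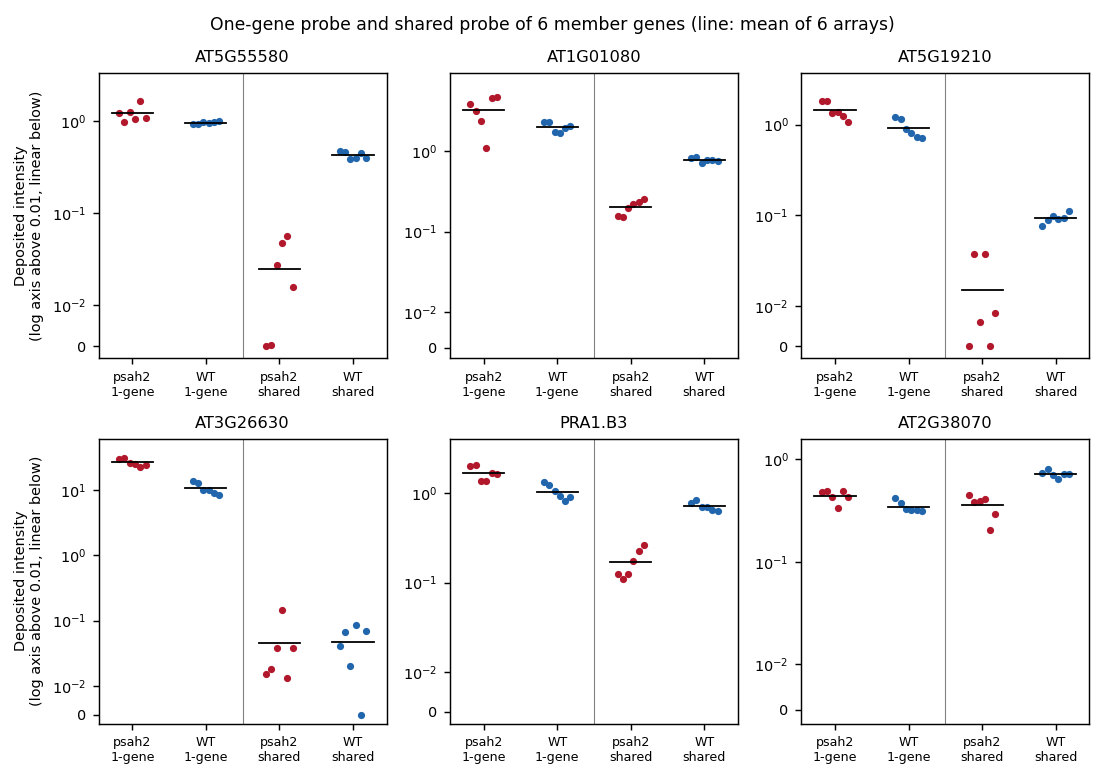
Deposited intensity of the single-gene probe (left 2 columns of each panel) and of the shared probe (right 2 columns) of 6 member genes, psah2 in red and WT in blue, on an axis that is logarithmic above 0.01 and linear below; lines are means of 6 arrays. The single-gene probes have the higher mean in psah2 in all panels, and the shared probes are lower with no overlap in all panels but that of AT3G26630.

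Within each group the members varied by consecutive replicate numbers, 1 and 2, 3 and 4, and 5 and 6. The rule compares the low psah2 arrays with the highest WT array and so favours probes of small spread, and the variation within groups is therefore given as a description. On the log2 scale as deposited, the 24 members with no array at 0 differed between consecutive psah2 arrays by a median of 0.11 and between other psah2 arrays by 0.37. The corresponding values in WT were 0.09 and 0.28. The difference between consecutive arrays was the smaller one for 22 of 24 members in psah2 and for 23 of 24 in WT. It was smaller for 70.1% of the 422 single-gene probes with no array at 0 in psah2 and for 87.4% of them in WT. After quantile normalization, deviations of the 25 members from their group means correlated with r from 0.51 to 0.77 between consecutive arrays (6 pairs) and from -0.80 to -0.09 between the other arrays of a group (24 pairs), as a description over genes that share these arrays. Over all 2643 tested probes the same r ran from -0.02 to 0.35 between consecutive arrays and from -0.50 to -0.17 between the others. Deviations from a shared group mean sum to 0, which by itself pulls such correlations below 0. The labels do not say what consecutive numbers share. If they share a plant or an extract, the groups hold fewer independent samples than 6.

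**Figure D5:**
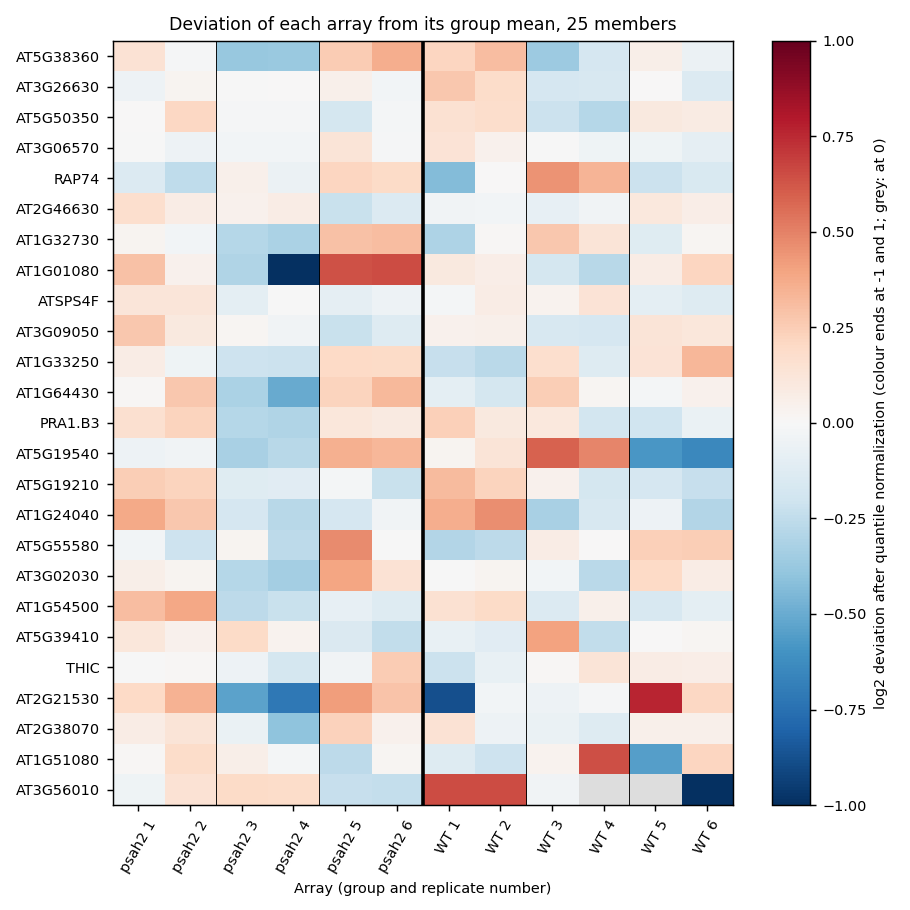
Log2 deviation of each array from its group mean after quantile normalization for 25 members (rows, brightest psah2 mean on top), psah2 arrays on the left and WT arrays on the right of the thick line. Thin lines separate the consecutive pairs of replicates, whose columns show similar colours for most genes; the 2 grey cells are arrays of AT3G56010 at 0.

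The members fell into a few patterns by pair. These were counted for the members only, so no share over all single-gene probes stands beside them. In psah2 the mean of replicates 1 and 2 was the highest of the 3 pairs for 15 of 24 members, among them AT5G38360, AT3G26630, AT5G50350 and ATSPS4F. The mean of replicates 5 and 6 was the highest for 8, among them RAP74, THIC, AT1G32730 and AT5G55580. Replicates 3 and 4 were highest only for AT5G39410 and lowest for 11. In WT replicates 1 and 2 were the highest for 16 and replicates 5 and 6 the lowest for 16. The median intensity of all probes on WT arrays was also highest on replicates 1 and 2, at 0.379, and lowest on replicates 5 and 6, at 0.304 and 0.305. The 422 single-gene probes with no array at 0 had median log2 deviations of 0.17 and 0.15 on WT replicates 1 and 2, and of -0.15 and -0.14 on 5 and 6. Those of the members were close, at 0.20 and 0.19, and at -0.15 and -0.12. The order in WT was thus shared with single-gene probes in general. In psah2 the array medians did not follow the same order, being 0.0918 and 0.0957 on replicates 1 and 2 and 0.0980 and 0.0995 on replicates 5 and 6. Most members were far brighter than these medians. The 422 single-gene probes had median log2 deviations of 0.024 and 0.062 on psah2 replicates 1 and 2. On psah2 replicates 5 and 6 these were -0.027 and -0.026. Whether the order in psah2 belongs to the members or to the arrays as a whole was not tested.

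The relative spread is given as a description, since the rule favours probes with little spread in psah2. Over the 24 members the SD within a group was a median of 18.04% of the mean in psah2 and 13.9% in WT, and it was larger in psah2 for 14 of them. Over the 422 single-gene probes it was 28.6% in psah2 and 14.5% in WT. The members are also brighter in psah2 than most of these probes.

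In the genome the 26 genes were spread over all 5 chromosomes. Chromosomes 1 and 5 held 7 each, chromosomes 2 and 3 held 5 each, and chromosome 4 held 2, ATSPS4F and RAP74. This was 4.05%, 4.9%, 4.03%, 3.85% and 1.67% of the single-gene probes of chromosomes 1, 5, 2, 3 and 4. No members were neighbours. The closest were AT5G19210 and AT5G19540, with 35 protein-coding genes between them, and AT1G32730 and AT1G33250, with 43. The annotated genes were from 926 bases (AT1G54500) to 6181 bases (ATSPS4F) long, with a median of 2313, against a median of 2146 over all single-gene probes.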

How the data were processed

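The authors deposited a table with 1 intensity per probe and array. Its background correction and scaling are not stated in the labels or the file. Groups and replicate numbers come from the sample titles, and no column lay outside the 12 samples. Probes were named from the platform annotation and RefSeq (TAIR10.1). No coordinates or sequences are given.

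Members were found by the rule on the deposited values. Members and gene lists were chosen with earlier results of these data known. For the fit, values were log2-transformed with 0 as missing, quantile-normalized, and fitted with limma 3.58.1 in R 4.3.3 (lmFit, eBayes, 2-sided, Benjamini-Hochberg over 2643 probes with at least 4 values in each group, no covariate). The fit was also run on simulated data with independent arrays, which cannot show what the likeness of consecutive replicates does to the calls. Tables were made with pandas 2.3.3.

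Full values were set to be given for the 12 members of highest psah2 mean and the 12 of highest ratio of means, and group means for the others. Further values were named after they were seen. Key words in the annotation's names placed only 1 gene, AT5G55580, in a functional group. Alternatives were other scales, thresholds, floors and filters, each array left out, the replicate number as a block, and averaged consecutive replicates, added after the data were seen.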

Additional observations from a re-analysis of the deposited data

Results flagged for a closer look

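Groups of 6 arrays were searched for an array that stands apart, by its gap to the nearest other array over the range of the group. Of 64 groups of deposited intensities, the members' and the shared probes', 2 passed Dixon's critical value, and chance passes about 1 in 20. For AT2G26340, WT replicate 1 read 0.00835 and the other 5 WT arrays 0 (gap over range 1). With the other 5 tied at 0 any value above 0 gives this gap, so it does not show that the array stands apart. For the probe shared by AT3G26630 and AT2G42920, psah2 replicate 4 read 0.145 and the others 0.0134 to 0.0385 (gap over range 0.810).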

How the results depend on the processing

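The rule gave 26 members, 21 when all 6 psah2 arrays had to exceed WT, 32 with 4 arrays, and 26 to 30 with 1 array left out. It gave 151 after division by the array median, 84 by the 75th percentile and 86 after quantile normalization, each including the 26. With consecutive replicates averaged it gave 27, of which 23 were members. The count of 24 members called higher stayed at 23 to 25 under all alternatives run. Their median log2 change of 1.58 was 1.11 as deposited and 2.54 with median-centred arrays, and 1.43 to 1.61 with 1 array left out. With the replicate number as a block, 25 members were called and the median stayed at 1.58, while all probes gave 654 higher and 938 lower. Of all tested probes 667 were higher and 958 lower, but 251 and 2049 as deposited and 602 and 618 with averaged replicates. Same-numbered psah2 and WT arrays correlated over the 25 members with a median r of 0.25, against 0.047 for arrays of other numbers. Over all tested probes r ran from 0.05 to 0.16 for the same number, above 0.1 for 5 of 6 numbers. For other numbers it ran from -0.096 to 0.057. The labels state no pairs, so the main fit took none, and what same-numbered arrays share was not tested. The best match was the array of the same number for 12 of 12 arrays over all tested probes and for 7 of 12 over the members. No member's log2 change turned sign, but the size of single changes moved. With a floor in place of values at 0, the log2 change rose from 3.502 to 6.73 for AT1G51080 and from 5.90 to 10.5 for AT3G56010. For AT2G21530 it rose from 3.04 to 3.89. The median of the members was then 1.74. Of the shared probes, that of AT5G19210 turned to 1.42 with a floor and ran from -0.18 to 0.031 with 1 array left out, that of AT3G26630 to -0.74 as deposited, and that of AT2G38070 to 0.36 with median-centred arrays, 0.13 with cyclic loess, 0.11 with a floor, 0.071 with averaged replicates, and ran from -0.092 to 0.087 with 1 array left out. The causes were not tested. Values near 0 limit AT2G26340, AT3G56010 and the dim shared probes.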
